A study of Mus musculus with 2 samples.

Results

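Human transcripts that do not encode Fcγ receptors were followed in leukocytes of MC38 tumours grown in mice carrying human Fcγ receptors, 6 in all: ATF6, DUSP12, FCRLB, FCRLA, PLCG2 and HSPA6. They were picked by name, because earlier results of the same files had shown human counts for them, so their levels are given as a description with no test. These 6 genes are among 38606 human features in the matrix, of which 4316 had at least 1 UMI (a unique molecular identifier, 1 tagged RNA molecule) in annotated cells and 55 had at least 100. Human features together held 781065 UMIs, 0.591% of all UMIs of these cells. The FCGR genes took 83.1% of them, the 6 transcripts 12.0% (94007 UMIs), and everything else 4.91%. Of the human UMIs outside the FCGR genes, the 6 transcripts held 71.0%.

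The cells were sorted for CD45, a surface protein of leukocytes, from subcutaneous tumours of MC38, a mouse colon carcinoma line. All mice had the genotype called human FcR, so no control without the human genes was available in these data. The treatment names in the annotation set apart binding to Fc receptors and agonism at GITR, a costimulatory receptor of T cells. Mice had PBS (Untreated), N297A (agonist, Fc-null), GA-aFuc (agonist, Fc-enhanced) or GITR/Syn GA-aFuc (non-agonist, Fc-enhanced); each antibody was directed at mouse GITR, carried a human IgG1 Fc and was given at 100 µg per mouse in 2 injections 3 days apart, and tumours were taken 4 days post treatment. Library 2, the library analysed here, held 6 mice: GA-aFuc replicates 2 and 3, GITR/Syn GA-aFuc replicates 2 and 3, N297A replicate 3 and Untreated replicate 3. Ages and sexes of the mice, and the construction of the strain, are not given in the sources used here.

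As background, ATF6 is a membrane-bound transcription factor of the endoplasmic reticulum that is cut and released when unfolded proteins accumulate, and then raises chaperone genes such as Hspa5. DUSP12 is a dual-specificity phosphatase with a zinc-binding domain. FCRLA and FCRLB are intracellular relatives of the Fc receptors, best known from B lineage cells. PLCG2 is the phospholipase C that acts below immunoreceptors such as Fc receptors and the B cell receptor, where it releases calcium-mobilising second messengers. HSPA6 is a strictly heat-inducible member of the HSP70 chaperone family that humans have and mice lack, so no mouse orthologue was compared with it. In the human genome HSPA6, FCRLA, FCRLB, DUSP12 and ATF6 lie beside the low-affinity FCGR genes, whereas PLCG2 is on another chromosome.

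The annotation gave 10476 cells of library 2 in 10 cell types and 58 clusters. Cells had 819 to 31460 UMIs (median 12075) and mice had 1.72e+07 to 2.58e+07 UMIs in all. Every marker listed for a cell type was above 10 CPM (UMIs of a feature per 1e6 UMIs of the cells) in that type. All were highest in their own type except for 3 of 6 monocyte, 4 of 5 CD4 and 3 of 4 cDC2 markers. The T cell types also held macrophage markers. C1qa was at 2266 CPM in regulatory T cells and 600 in CD4 cells, against 5062 in macrophages. Apoe was at 4176 and 1389 CPM against 7567 in the same order. The part of macrophage RNA in the levels of these 2 T cell types was not tested. In plasmacytoid dendritic cells (pDC), plasma cell markers summed to 523 CPM against 62.8 to 128 CPM in the other 9 types. Of the barcodes in the annotation, 34 occurred in both libraries of the series. Free RNA was read from 165214 barcodes of 10 to 100 UMIs. Xist, the RNA of the inactive X chromosome, stood at 585 CPM and 591 CPM in macrophages of GA-aFuc replicate 2 and GITR/Syn GA-aFuc replicate 2, and at 1.17 to 1.98 CPM in the other 4 mice. Uty, a gene of the Y chromosome, was at 0.378 and 0.269 CPM in the first 2 and at 49.5 to 68.0 CPM in the other 4. By these counts the first 2 read as female and the others, with the N297A and Untreated mice, as male, though no label gives a sex.

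Counts followed position in the deposited feature list, in which neighbouring genes stand next to each other. From FCGR2A to ATF6 the list has 14 rows, and 11 of them had at least 100 UMIs: FCGR2A, HSPA6, FCGR3A, FCGR2C, FCGR3B, FCGR2B, FCRLA, FCRLB, ATF6-DT, DUSP12 and ATF6. The other 3 rows had at most 15 UMIs. The 10 rows before FCGR2A had 0 UMIs in sum, and the 10 rows after ATF6 had 0 UMIs. Within this window the human counts thus began at FCGR2A and ended at ATF6. PLCG2 stood apart, since the 20 rows around it had at most 10 UMIs each and a median of 0. Since the handling of reads that match both genomes is not given, whether the UMIs listed under PLCG2 come from human or mouse RNA cannot be told apart here, and its levels and human shares below are those of the feature as listed.

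**Figure D1:**
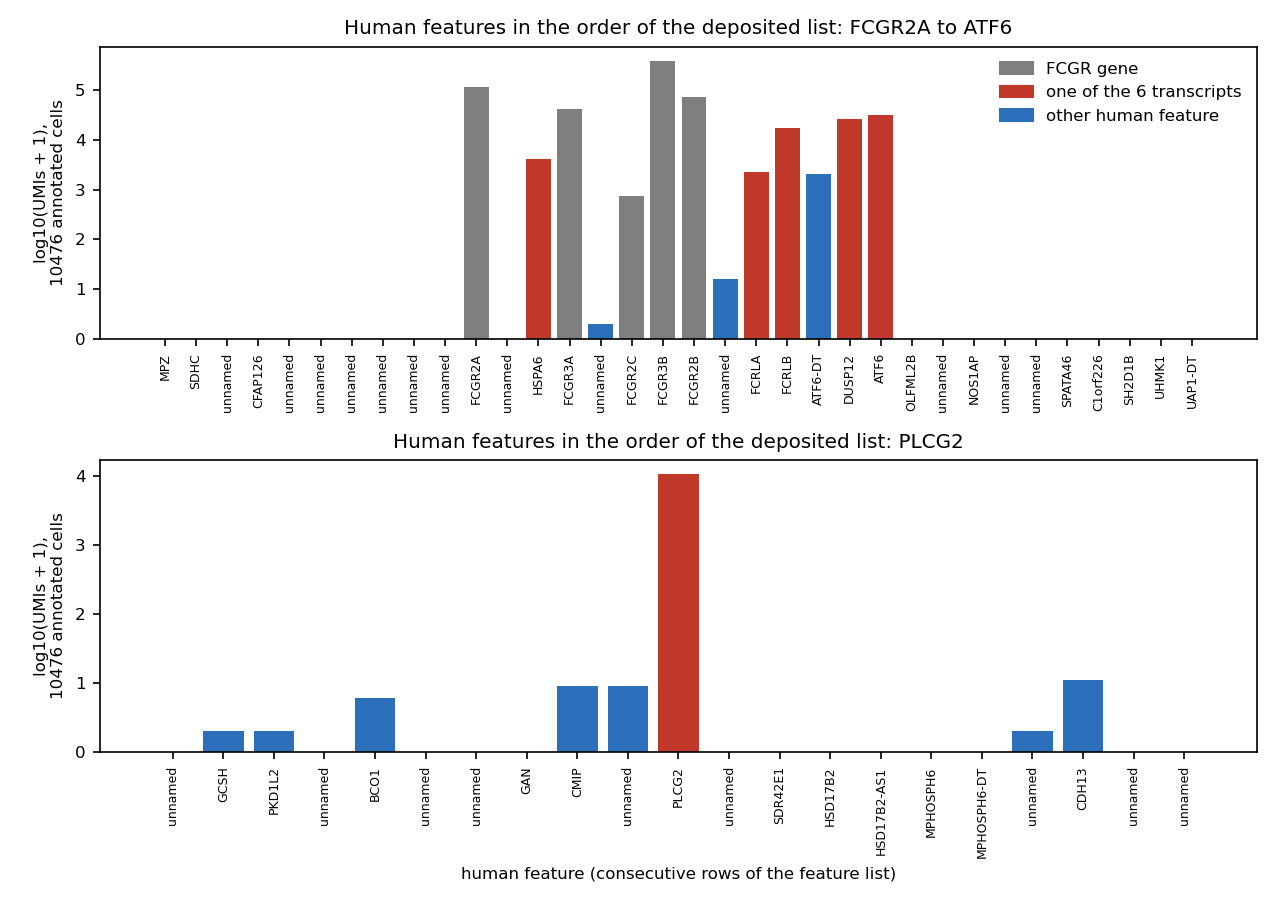
Log10(UMIs + 1) of consecutive human features in the deposited list, summed over 10476 annotated cells, around FCGR2A to ATF6 (upper panel) and around PLCG2 (lower panel). The 10 rows on either side of the FCGR2A to ATF6 stretch are at 0, and PLCG2 has no neighbour above 10 UMIs.

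ATF6 (ENSG00000118217) was the most counted of the 6, with 32556 UMIs, exceeded among human features only by FCGR3B, FCGR2A, FCGR2B and FCGR3A. DUSP12 (ENSG00000081721) had 27034 UMIs, FCRLB (ENSG00000162746) 17291, PLCG2 (ENSG00000197943) 10811, HSPA6 (ENSG00000173110) 4062 and FCRLA (ENSG00000132185) 2253. The other human features with most UMIs were ENSG00000278996 with 4100, ATF6-DT, a divergent transcript at the ATF6 start, with 2077, LINC00486 with 1982, ENSG00000280441 with 777 and RPS3A with 574. HSPA6 and FCRLA were thus no higher than ENSG00000278996. A UMI counts the 3′ end of a molecule and is not scaled to gene length.

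ATF6 was found mainly in myeloid cells. In macrophages it stood at 268 and 282 CPM in GA-aFuc replicates 2 and 3, 320 and 259 CPM in GITR/Syn GA-aFuc replicates 2 and 3, 247 CPM in the N297A mouse and 275 CPM in the Untreated mouse, a mean of 275 ± 25.3 CPM (SD, n = 6 mice). Monocytes had 240 ± 10.9 CPM, cDC2 (type 2 conventional dendritic cells) 164 ± 12.5, NK cells 106 ± 16.3 and CD8 T cells 82.2 ± 16.2 (SD, n = 6 each). The mice of macrophages and monocytes overlapped, as did those of NK and CD8 cells, while cDC2 overlapped with neither neighbour. Free RNA held 148 CPM, more than NK and CD8 cells had in any mouse. After thinning each cell to 3000 UMIs, the share of cells with an ATF6 UMI was 53.8% in macrophages and 21.1% in CD8 cells; unthinned it was 93.3% and 48.5%, at median depths of 14327 and 8505 UMIs. The thinning left out 39 macrophages and 10 CD8 cells.

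Mouse Atf6, the orthologue, was counted in the same cells and was likewise lower in NK and CD8 cells than in macrophages, monocytes and cDC2. It stood at 138 ± 21.0 CPM in macrophages, 153 ± 12.9 in monocytes, 145 ± 17.5 in cDC2, 68.0 ± 15.8 in NK cells and 63.3 ± 10.0 in CD8 cells (SD, n = 6 mice). In free RNA Atf6 was at 59.4 CPM. Human UMIs made up 64.7% ± 1.43 (SD, n = 6 mice) of ATF6 plus Atf6 in all cells, 66.7% ± 1.96 in macrophages and 53.2% ± 4.16 in cDC2. The highest share came from mregDC (mature regulatory dendritic cells), where 181 human and 33 mouse UMIs gave 84.6% (95% exact binomial interval 79.0% to 89.1%). ATF6 had its highest pooled level there, 318 CPM (95% exact Poisson interval 273 to 368) over 55 cells, and Atf6 its lowest, 57.9 CPM (39.9 to 81.4). One mouse held much of it: GITR/Syn GA-aFuc replicate 2 was at 517 CPM in mregDC and the other 5 mice at 159 to 315 CPM. Without that mouse mregDC had 230 CPM of ATF6 (185 to 283) and 65.8 CPM of Atf6 (43.0 to 96.3) in 40 cells. In cDC1 the human share was 41.3% (34.1% to 48.8%), below that of every mouse in macrophages, where the lowest was 64.9%. Intervals here and below cover counting error only.

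DUSP12 differed from ATF6 in that 1 cell type stood out. Macrophages had 267 and 207 CPM in GA-aFuc replicates 2 and 3, 194 and 230 CPM in the GITR/Syn GA-aFuc pair, 296 CPM in the N297A mouse and 246 CPM in the Untreated mouse (mean 240 ± 38.2, SD, n = 6). Each of these lay above every mouse of the other 4 well-filled types, whose highest value was 167 CPM in CD8 cells of GA-aFuc replicate 3. Monocytes had 146 ± 8.36 CPM, CD8 cells 146 ± 14.1, cDC2 136 ± 8.72 and NK cells 119 ± 8.77, and neighbours in this order overlapped. Free RNA held 158 CPM of DUSP12, above the means of these 4 types, and 14.0 CPM of mouse Dusp12. Dusp12 of the mouse was far lower, at 16.2 ± 3.20 CPM in macrophages and 9.81 ± 0.822 CPM in monocytes, so that human UMIs were 93.4% ± 0.844 of the pair (SD, n = 6 mice). This share lay between 89.7% and 93.7% in all 10 types.

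FCRLB had its highest means of the 5 well-filled types in macrophages and monocytes. Its macrophage levels were 133 and 187 CPM in GA-aFuc replicates 2 and 3, 90.3 and 158 CPM in GITR/Syn GA-aFuc replicates 2 and 3, 223 CPM in the N297A mouse and 153 CPM in the Untreated mouse (157 ± 45.4, SD, n = 6). Monocytes had 124 ± 35.9 CPM, cDC2 59.0 ± 16.1, NK cells 23.0 ± 8.82 and CD8 cells 10.9 ± 3.40. Macrophages and monocytes overlapped, monocytes and cDC2 touched (lowest monocyte value 85.3, highest cDC2 value 85.6 CPM), and NK cells lay below every cDC2 value. Free RNA held 102 CPM of FCRLB. All mice were below this in CD8 cells, NK cells and cDC2, as were 2 mice in monocytes (85.3 and 85.7 CPM) and 1 in macrophages (90.3 CPM). Mouse Fcrlb was nearly absent, with 149 UMIs in all, 87 of them in monocytes, and human UMIs made up 99.1% of the pair. After thinning, 30.7% of macrophages and 3.17% of CD8 cells had an FCRLB UMI (63.7% and 9.96% unthinned).

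FCRLA gave the sharpest contrast between cell types, although it was the rarest of the 6. Among 27 pDC, the interferon-producing dendritic cells, 25 had an FCRLA UMI, and the pooled level was 684 CPM (95% exact Poisson interval 581 to 800; 157 UMIs). All 6 mice contributed: GA-aFuc replicates 2 and 3 had 843 and 696 CPM, GITR/Syn GA-aFuc replicates 2 and 3 had 580 and 723, N297A 597 and Untreated 751, each from 2 to 8 cells. Outside pDC the highest level of a mouse in a type with at least 10 of its cells was 43.4 CPM, and 1 regulatory T cell with 2 UMIs gave 273 CPM. Macrophages had 21.9 ± 12.8 CPM, monocytes 9.41 ± 3.17, cDC2 4.09 ± 4.07, CD8 cells 1.07 ± 1.10 and NK cells 0.476 ± 0.524 (SD, n = 6 mice), with neighbours overlapping. CD4 cells and cDC1 had 0 UMIs, which allows up to 7.50 and 4.33 CPM by the exact Poisson interval. Free RNA held 13.1 CPM. Fcrla of the mouse peaked in the same 27 cells, at 336 CPM (265 to 419; 77 UMIs), and was at 5.06 ± 0.932 CPM in macrophages and 5.24 ± 0.587 in monocytes. The human share was 67.1% (60.7% to 73.1%) in pDC, 77.2% ± 11.7 in macrophages and 11.5% (2.45% to 30.2%) in NK cells, where the counts were 3 human against 23 mouse UMIs.

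Since both the human and the mouse gene peaked in pDC, the mouse Fcrla promoter is shown; no human sequence was used here. The 250 bases upstream of its start, from RefSeq on GRCm38.p6 (chr1:170927584-170927833, minus strand), hold 4 matches to the E-box letters CANNTG and 1 to GAGGAA, letters found in PU.1-type Ets sites, counting both strands; matches are in capitals and do not overlap. The files were counted on GRCm39, so this window is not in their coordinates.
Fcrla promoter: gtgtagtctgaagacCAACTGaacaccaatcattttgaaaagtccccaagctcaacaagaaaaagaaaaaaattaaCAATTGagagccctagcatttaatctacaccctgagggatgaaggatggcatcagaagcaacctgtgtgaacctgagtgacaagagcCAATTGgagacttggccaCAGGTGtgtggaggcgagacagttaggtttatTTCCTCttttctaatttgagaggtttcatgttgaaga
Of 32851 mouse promoters of the same length, 66.2% hold CANNTG and 23.3% hold GAGGAA, so neither is rare; a match describes letters only.

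Macrophages were not uniform for these transcripts. Among the 24 macrophage clusters, cluster 15 (279 cells) had the highest level of ATF6 (379 CPM), DUSP12 (490 CPM), FCRLB (353 CPM) and FCRLA (93.6 CPM), against cluster medians of 259, 230, 143 and 17.8 CPM. Clusters 28 and 2 were close to it for ATF6 (364 and 359 CPM), as was cluster 39 for FCRLB (324 CPM). The next highest was cluster 25 for DUSP12 (320 CPM) and cluster 13 for FCRLA (32.9 CPM). FCRLA reached 44.1 and 119 CPM in cluster 15 of GA-aFuc replicates 2 and 3, 15.5 and 94.998 CPM in GITR/Syn GA-aFuc replicates 2 and 3, 170 CPM in the N297A mouse and 96.5 CPM in the Untreated mouse, while the remaining macrophages of these mice had 12.1, 23.3, 6.03, 14.4, 34.3 and 18.8 CPM in the same order. In 6 of 6 mice all 4 transcripts were higher in cluster 15 than in the remaining macrophages. The pooled ratio was 5.42 for FCRLA, 2.45 for FCRLB, 2.15 for DUSP12 and 1.40 for ATF6. The receptor genes FCGR3A and FCGR3B had ratios of 1.29 and 1.23. PLCG2 was near its level elsewhere (89.5 against 78.5 CPM), and HSPA6 was at 22.2 against 30.2 CPM. The orthologues Atf6 (159 against 136 CPM), Dusp12 (19.96 against 16.2) and Fcrla (5.42 against 5.13) differed less. Among features of at least 50 CPM in cluster 15 and 30 UMIs in other macrophages, those with the highest ratio to other macrophages were Fcrl5, Gm15987, Sox5, Cd300e and Htra4, and FCRLA was sixth with a ratio of 5.42. Fcrl5, a surface Fc receptor-like gene, was at 50.5 CPM in cluster 15 and 3.51 CPM in other macrophages. These genes were looked up after the cluster had been chosen for its levels, and a cluster set against the rest is no test. Of 5725 macrophages, 73 had at least 5 FCRLA UMIs; these 1.28% of the cells held 32.5% of the macrophage UMIs of FCRLA, and 24 of them were in cluster 15.

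**Figure D2:**
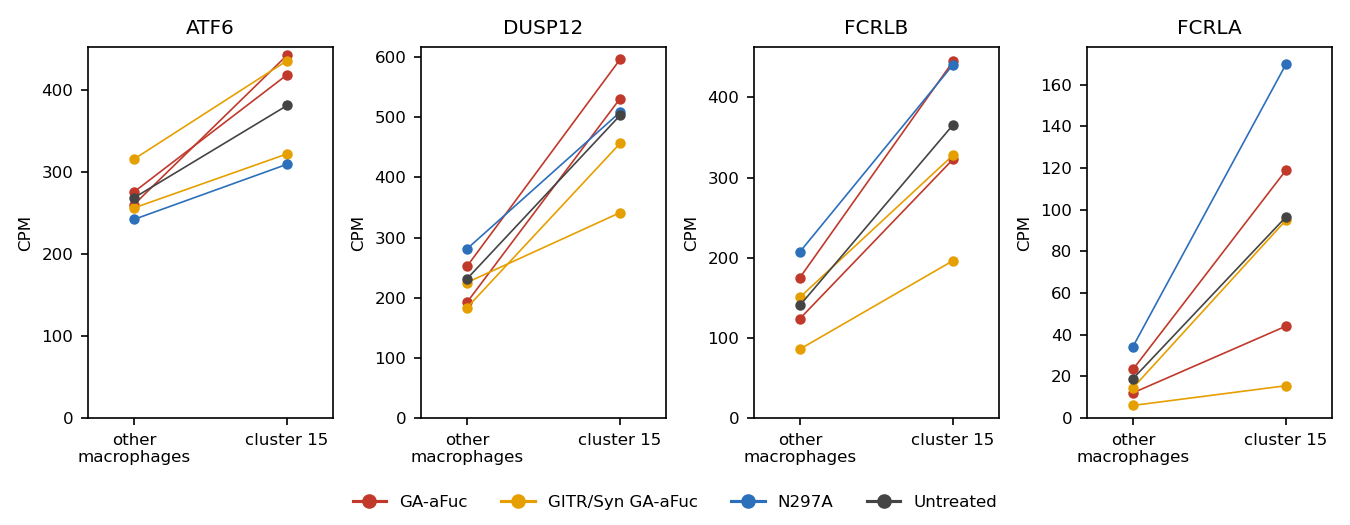
CPM of ATF6, DUSP12, FCRLB and FCRLA in macrophages of cluster 15 and in all other macrophages, a line for each of the 6 mice, coloured by treatment. Every line rises towards cluster 15, and for FCRLA from 6.03 to 34.3 CPM outside it to 15.5 to 170 CPM inside.

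B cell markers, 5 genes in all, summed to 30.7 CPM in macrophages, 30.5 CPM in pDC and at most 9.83 CPM in the other types. By mouse their macrophage sum lay between 23.6 CPM in GITR/Syn GA-aFuc replicate 2, where FCRLA was lowest, and 37.6 CPM in GA-aFuc replicate 2, where FCRLA was next lowest. The part of these markers in the FCRLA and FCRLB levels was not tested.

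With cells of all depths together, the PLCG2 means of NK and CD8 cells were not below those of macrophages, monocytes and cDC2. NK cells had 105 ± 12.7 CPM, CD8 cells 102 ± 17.1, monocytes 82.9 ± 14.1, macrophages 79.1 ± 8.87 and cDC2 59.7 ± 15.4 (SD, n = 6 mice), and every neighbour in this order overlapped. This order was not the same at each depth. Pooled cells of 4000 to 8000 UMIs had 145 CPM in macrophages, 136 in CD8 cells, 124 in NK cells and 122 in monocytes. From 16000 UMIs NK cells had 81.1 CPM, CD8 cells 71.7, macrophages 66.8 and monocytes 57.9. In CD8 cells the mice were at 110 and 80.9 CPM (GA-aFuc replicates 2 and 3), 131 and 100 CPM (the GITR/Syn GA-aFuc pair), 96.9 CPM (N297A) and 92.6 CPM (Untreated). Free RNA held 146 CPM of PLCG2, above every mouse of the 5 types with a mean, and 71.6 CPM of mouse Plcg2. Mouse Plcg2 showed a different distribution, with 143 ± 8.58 CPM in macrophages, 145 ± 7.50 in monocytes, 126 ± 21.0 in cDC2, 58.4 ± 13.2 in NK cells and 14.3 ± 11.3 in CD8 cells. Human UMIs were therefore 35.6% ± 2.00 of the pair in macrophages but 88.7% ± 5.59 in CD8 cells, with cells of all depths together. At 4000 to 8000 UMIs Plcg2 was at 109 CPM in macrophages and 9.94 CPM in CD8 cells (pooled). Over 54 clusters of at least 30 cells PLCG2 and Plcg2 had a Pearson r of -0.240 on log2(CPM + 1), where all clusters come from the same library.

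**Figure D3:**
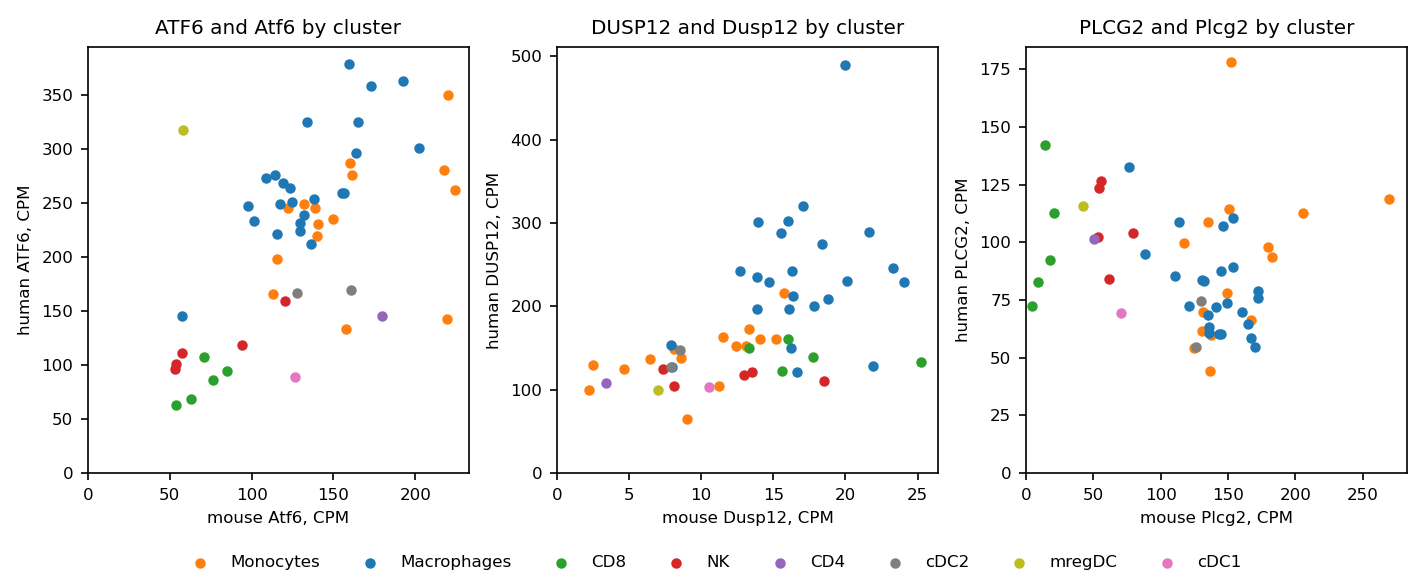
Human transcript against its mouse orthologue, both in CPM, for ATF6, DUSP12 and PLCG2, with a point for each of 54 clusters of at least 30 cells, coloured by cell type. ATF6 and Atf6 have a Pearson r of 0.646, with mregDC apart at 318 against 57.9 CPM; DUSP12 is highest in macrophage cluster 15 (490 CPM), and CD8 clusters hold PLCG2 with little Plcg2.

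The level of PLCG2 varied with the depth of the barcode. In annotated cells it was 647 CPM (95% exact Poisson interval 477 to 858) at 1000 to 2000 UMIs per cell, 149 CPM at 2000 to 4000, 126 at 4000 to 8000, 84.0 at 8000 to 16000 and 66.7 (64.5 to 68.9) from 16000. The first of these bins rests on 47 cells, of which 21 had a PLCG2 UMI and 1 had 10. Within macrophages it went from 147 CPM at 2000 to 4000 UMIs to 66.8 CPM from 16000, and within monocytes from 176 to 57.9 CPM over the same bins. Over all annotated cells mouse Plcg2 went from 104 CPM at 2000 to 4000 UMIs to 134 CPM from 16000, and within macrophages from 110 to 146 CPM, but within monocytes it was lower in deeper cells, as PLCG2 was, going from 185 to 135 CPM. Other transcripts also varied with depth. HSPA6 went from 121 CPM at 1000 to 2000 UMIs to 27.6 CPM from 16000 over all annotated cells, where the first bin rests on 9 UMIs. From the bin of 2000 to 4000 UMIs to that from 16000, FCRLB went from 233 to 139 CPM and HSPA6 from 61.3 to 28.1 CPM within macrophages, but FCRLB from 88.1 to 162 CPM and HSPA6 from 21.3 to 29.6 CPM within monocytes. ATF6 lay between 198 and 257 CPM in all 5 bins of annotated cells, but within NK cells it went from 160 CPM at 2000 to 4000 UMIs to 89.9 CPM from 16000. PLCG2 in NK cells did not follow the order of the other types. It was at 86.6 CPM at 2000 to 4000 UMIs, 137 CPM at 8000 to 16000 and 81.1 CPM from 16000. A few cells held many PLCG2 UMIs: 7 cells with at least 20 held 3.28% of them, and the highest cell had 109.

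**Figure D4:**
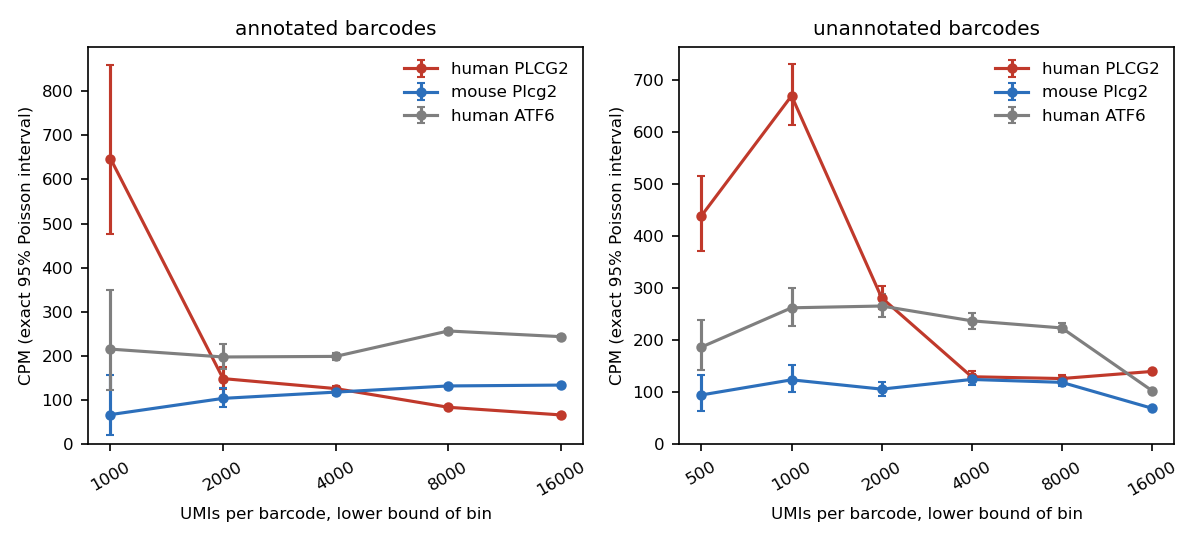
CPM of human PLCG2, mouse Plcg2 and human ATF6 by UMIs per barcode, in annotated cells (left) and in barcodes outside the annotation (right), with exact 95% Poisson intervals. In annotated cells PLCG2 goes from 647 to 66.7 CPM, Plcg2 from 67.4 to 134 CPM and ATF6 lies between 198 and 257 CPM.

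HSPA6 was near the level of free RNA in the types with most cells, and a few cells held large amounts. Macrophages had 30.1 ± 2.85 CPM, CD8 cells 31.1 ± 9.11, monocytes 27.1 ± 7.67 and cDC2 14.4 ± 10.3 (SD, n = 6 mice), against 31.7 CPM in free RNA. NK cells had 49.8 ± 55.5 CPM, with 159.8 CPM in the Untreated mouse and 12.8 to 49.1 CPM in the other 5. In that mouse 1 NK cell held 150 HSPA6 UMIs, 44.9% of all those in the 604 NK cells. Of the 162 HSPA6 UMIs of CD4 cells, 159 came from 1 cell of GA-aFuc replicate 3. In all, 7 annotated cells had at least 10 HSPA6 UMIs, a limit set after their values were seen: these 2, 3 macrophages of cluster 9 with 52, 17 and 17, a CD8 cell with 32 and a monocyte with 11. Without them HSPA6 was at 29.0 CPM in NK cells, 26.4 in CD8 cells, 28.8 in macrophages and 6.20 in CD4 cells (pooled).

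Cells rich in HSPA6 were mostly rich in the mouse heat shock genes Hspa1a and Hspa1b, the inducible HSP70 genes of the mouse. The CD4 cell had 132 Hspa1a plus Hspa1b UMIs, the NK cell 32, the 3 macrophages 109, 100 and 83, the CD8 cell 80 and the monocyte 2. Over all cells HSPA6 was at 26.5 CPM in 8834 cells with 0 Hspa1a plus Hspa1b UMIs, 30.03 CPM in 1529 cells with 1 to 9, 225 CPM in 91 cells with 10 to 49 and 1350 CPM in 22 cells with at least 50. Without the 7 cells the last 3 values were 29.5, 75.5 and 127 CPM, in the same order. The last value rests on few UMIs. The 22 cells with at least 50 held 300 HSPA6 UMIs, most of them in the CD4 cell (159), the CD8 cell (32) and the 3 macrophages (52, 17 and 17). Cells with at least 50 had a median of 8732 UMIs and those with 0 a median of 12084.5. Cluster 9 had the highest HSPA6 level of the 24 macrophage clusters, 72.2 CPM, against a cluster median of 28.8, but the 3 cells named above held 86 of its 236 UMIs. Without them it was at 46.2 CPM, below cluster 39 at 49.5 CPM.

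**Figure D5:**
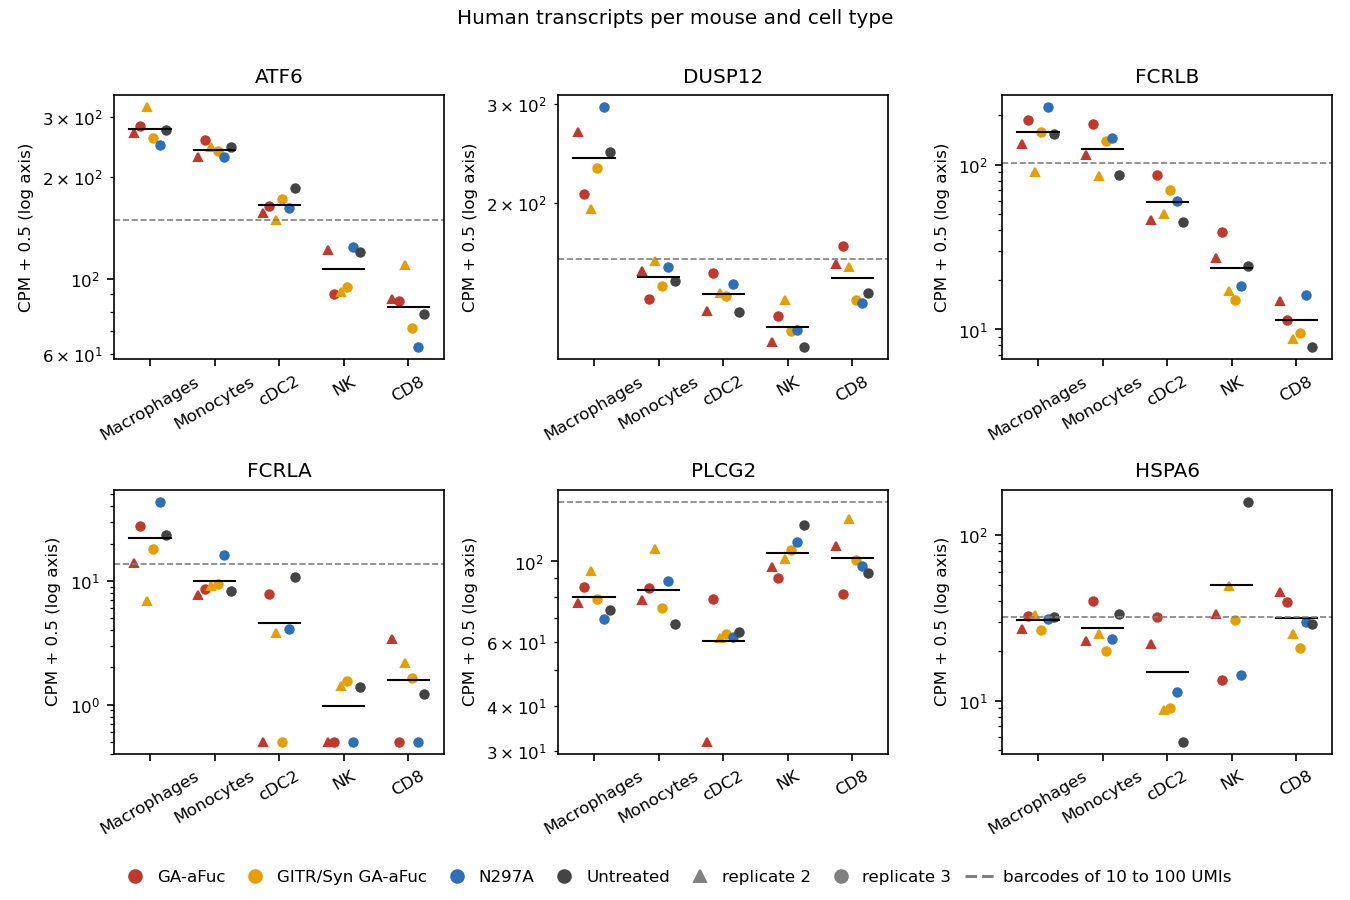
CPM + 0.5 on a log axis for each of the 6 human transcripts in 5 cell types, with a point per mouse (triangles replicate 2, circles replicate 3, coloured by treatment), a bar at the mean and a dashed line at the level in barcodes of 10 to 100 UMIs. ATF6, FCRLB and FCRLA step down from macrophages to lymphocytes, PLCG2 and HSPA6 do not, and 1 NK point of HSPA6 (Untreated, 159.8 CPM) stands above the others.

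The transcripts were also compared by their pattern over the 54 clusters, as Pearson correlations of log2(CPM + 1) with 10363 features; clusters share a library and differ in depth, so these are descriptions. Nearest to ATF6 were Tgfbr1 (r = 0.897), a TGF-β receptor gene, Tnfrsf11a (0.885), which encodes RANK, and the human receptor gene FCGR3B (0.884), and its own orthologue Atf6 reached 0.646. Nearest to FCRLB were Clec4a2 (0.864), Lair1 (0.853) and FCGR2A (0.849), and nearest to FCRLA were Sirpb1a (0.832), Cd300e (0.822) and Pou2f2 (0.817), followed at rank 6 by FCRLB (0.799). FCRLA and mouse Fcrla had an r of 0.271 here, where the pDC cluster is left out for its 27 cells. DUSP12 was nearest to Clec4b1 (0.808), Cd79b (0.803) and Ndufc2 (0.787), with Dusp12 at 0.540. For PLCG2 (Cmss1, Anxa2 and Rab5a, 0.667 to 0.645) and HSPA6 (Fam210a, Afg3l2 and Otulin, 0.678 to 0.654) the highest values were lower. Among the 6, FCRLB, FCRLA, ATF6 and DUSP12 correlated with each other at 0.495 to 0.799, while PLCG2 was between -0.416 and -0.203 with these 4.

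For the treatments, counts were summed per mouse in 5 classes (macrophages, monocytes, CD8, NK and all 4 dendritic types together) and compared with edgeR's quasi-likelihood test over all features that passed a filter on low counts, with Benjamini-Hochberg adjustment over these features and a threshold of 0.05. FCRLA did not pass the filter in CD8 and NK cells, so each contrast had 28 tests of the 6 transcripts. Only 2 residual degrees of freedom are available, and the N297A and the Untreated mouse, 1 each, are assumed to vary like the paired mice. GA-aFuc stands in all 3 contrasts, which therefore share its mice.

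Of the 28 tests of GA-aFuc against Untreated, 1 passed and 2 had an unadjusted p under 0.05. Over all features and classes, 2478 of 52716 tests were under 0.05 unadjusted. By class 0 of 6 passed in macrophages (background 0% of 14340 features), 0 of 6 in monocytes (0.176% of 11920), 0 of 5 in CD8 cells (0% of 8570), 1 of 5 in NK cells (0.0536% of 9329) and 0 of 6 in dendritic cells (0.0117% of 8557). The call was HSPA6 in NK cells, with TMM-scaled levels of 33.5 and 12.8 CPM in GA-aFuc replicates 2 and 3 against 159 CPM in Untreated replicate 3. The log2 fold change was -2.59 ± 0.35 (SE), with an adjusted p of 0.0074 by edgeR. The Untreated value holds the NK cell with 150 HSPA6 UMIs. Without cells of at least 10 HSPA6 UMIs the log2 fold change was -0.08 ± 0.45 (adjusted p = 0.9997 by edgeR), and with DESeq2 on all cells the adjusted p was 0.0755. The call thus rests on 1 cell.

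For GA-aFuc against N297A, 0 of 28 tests passed by edgeR and 1 had an unadjusted p under 0.05; DESeq2 also called 0. The backgrounds were 0% in macrophages, 0.579% in monocytes, 0.0117% in CD8 cells, 0.0429% in NK cells and 0.0234% in dendritic cells. Over all features and classes, 2991 of 52716 tests were under 0.05 unadjusted. The smallest p was that of FCRLA in monocytes, at 7.18 and 8.09 CPM in the GA-aFuc mice and 16.2 CPM in the N297A mouse (log2 fold change -1.08 ± 0.29 SE, adjusted p = 0.162 by edgeR). In macrophages FCRLA was at 13.3 and 27.2 CPM against 44.8 CPM (-1.16 ± 0.54, adjusted p = 0.970). The GA-aFuc mice thus lay below the N297A mouse in both classes, but neither difference passed. With no filter on low counts both did (adjusted p = 0.0368 in monocytes and 0.000334 in macrophages). That setting also called more features in all for this contrast, as given under the dependence on processing below. The N297A mouse was the highest of the 6 for FCRLA in both classes.

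For GITR/Syn GA-aFuc against GA-aFuc, 0 of 28 tests passed by edgeR and 4 had an unadjusted p under 0.05; DESeq2 also called 0. The backgrounds were 0.00697% in macrophages, 0.109% in monocytes, 0% in CD8 cells, 0% in NK cells and 0.14% in dendritic cells. Over all features and classes, 2300 of 52716 tests were under 0.05 unadjusted. FCRLA in dendritic cells had the smallest p, at 26.2 and 22.5 CPM in the GITR/Syn GA-aFuc pair and 45.2 and 82.1 CPM in the GA-aFuc pair (log2 fold change -1.39 ± 0.32 SE, adjusted p = 0.186 by edgeR). Against the Untreated mouse, at 23.6 CPM, the GA-aFuc pair differed by 1.44 ± 0.41 (adjusted p = 0.438). Of the FCRLA UMIs of dendritic cells, 26 of 26 and 48 of 51 in GA-aFuc replicates 2 and 3 were in pDC, 24 of 27 and 20 of 20 in the GITR/Syn GA-aFuc pair, 25 of 28 in N297A and 14 of 20 in Untreated. The share of pDC among dendritic cells was 8.51% and 13.8% in the GA-aFuc pair, 4.82% and 4.17% in the GITR/Syn GA-aFuc pair, 8.33% in N297A and 3.03% in Untreated, so it moved with these levels; its part in them was not tested. With pDC left out, FCRLA did not pass the filter in dendritic cells. Other settings moved FCRLA in dendritic cells past the threshold with the same sign. Those that leave out a mouse have 1 residual degree of freedom, so that a single pair gives the spread. Without GA-aFuc replicate 2, which leaves 1 GA-aFuc mouse with 8 pDC, it passed in both contrasts (1.79 against Untreated, adjusted p = 0.00127; -1.74 for GITR/Syn GA-aFuc against GA-aFuc, adjusted p = 3.2e-05). Without GITR/Syn GA-aFuc replicate 2 it passed in both as well (adjusted p = 0.0477 and 0.0298), and without GITR/Syn GA-aFuc replicate 3 against Untreated (0.0448). For GITR/Syn GA-aFuc against GA-aFuc it also passed with no filter on low counts (0.00454) and without the cells of highest 1% of UMIs (0.0393). In that contrast each of these settings, including those that leave out a mouse, also called more features in all, as given below. The other 3 tests with an unadjusted p under 0.05 were HSPA6 in dendritic cells (-1.71 ± 0.55, adjusted p = 0.422), HSPA6 in CD8 cells (-0.93 ± 0.31, adjusted p = 0.9995) and FCRLB in NK cells (-0.94 ± 0.34, adjusted p = 0.998).

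ATF6, DUSP12 and PLCG2 passed in no class and no contrast by edgeR. In macrophages the log2 fold changes of ATF6 were -0.06 ± 0.22 against Untreated and 0.09 ± 0.22 against N297A for GA-aFuc, and 0.06 ± 0.18 for GITR/Syn GA-aFuc against GA-aFuc. PLCG2 gave 0.08 ± 0.21, 0.16 ± 0.21 and 0.09 ± 0.17 in the same contrasts, and DUSP12 -0.12 ± 0.26, -0.39 ± 0.26 and -0.16 ± 0.21. FCRLB in macrophages, with 85.4 to 231 TMM-scaled CPM, had 0.00 ± 0.37, -0.54 ± 0.37 and -0.36 ± 0.31. FCRLB and FCRLA in macrophages were lowest in GITR/Syn GA-aFuc replicate 2 and next lowest in GA-aFuc replicate 2, the 2 mice with Xist. This order did not hold in monocytes. There FCRLB was at 85.3 and 113 CPM in these mice and 85.7 CPM in the Untreated mouse. FCRLA was at 8.62, 7.23 and 7.82 CPM in the same order. With a term for Xist, added after seeing the data, 1 residual degree of freedom was left. FCRLA in macrophages then passed for GITR/Syn GA-aFuc against GA-aFuc (-0.84 ± 0.22, adjusted p = 0.0130 by edgeR, against -0.73 ± 0.48 without the term), along with 5 features higher and 185 lower of 14340 in all. By Xist, the levels were 13.5 CPM in the GA-aFuc and 6.40 in the GITR/Syn GA-aFuc mouse with it, and 27.4 and 17.7 CPM in those without it. Against N297A the FCRLA value moved from -1.16 to -0.59, and against Untreated from -0.25 to 0.32, and neither passed. FCRLB in macrophages passed in no contrast with the term, and in monocytes it passed for GA-aFuc against Untreated (1.05 ± 0.28, adjusted p = 0.0134, against 0.72 ± 0.33 without the term), along with 231 features higher in all and 19 lower of 11920.

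The mouse genes around these proteins were described from 5 lists. Of the 23 genes of the endoplasmic reticulum stress response, the most abundant in macrophages were Hspa5 (762 CPM), the chaperone BiP and a classic ATF6 target, Hsp90b1 (730), Calr (665) and Pdia6 (248). In mregDC, which had the highest pooled ATF6 level, they were at 228, 183, 190 and 68.5 CPM, the lowest of all types. Hspa5 was highest in cDC1 (819 CPM), where ATF6 was at 89.1 CPM (pooled). The relation of ATF6 to these genes was not tested. By edgeR 0 of 23 passed in any class or contrast, and 0 to 5 per class and contrast had an unadjusted p under 0.05, with 5 in dendritic cells for GA-aFuc against Untreated (list median log2 fold change 0.43, all features -0.00) and 5 against N297A (0.33, all features 0.01). Over all features 6.97% had an unadjusted p under 0.05 in each of these contrasts. Xbp1, a transcription factor of this list, was at 353 CPM in pDC and at most 123 CPM in the other types, and pDC were more of the GA-aFuc than of the Untreated dendritic cells, as given above. The part of pDC in these list values was not tested. Without pDC the counts were 2 of 23 against Untreated (5.86% of all features) and 4 of 23 against N297A (6.96%), with list medians of 0.33 and 0.33. Of the 14 heat shock genes, Hsp90ab1 (1851 CPM), Hspa8 (1178), Hsp90aa1 (479) and Dnaja1 (464) led in NK cells. In NK cells 0 of 13 tested passed for GA-aFuc against Untreated (2 unadjusted, list median -0.18, all features 0.01). In this contrast 2478 of 52716 tests of all features, over all classes, were under 0.05 unadjusted.

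Of the 20 genes of phospholipase Cγ signalling, Fcer1g (2099 CPM) and Tyrobp (1842), the adaptors of activating receptors, led in NK cells, followed by Lyn (174) and Prkcb (153). Of the 10 mouse Fc receptor and Fc receptor-like genes, Fcgr2b, the inhibitory receptor, was at 432 CPM in macrophages, Fcrls at 28.5, Fcgr3 at 18.3 and Fcrl5 at 5.75, whereas Fcgr1 and Fcgr4 were at 0.224 and 0.0118 CPM. Of the 13 dual-specificity phosphatases, Dusp1 (421 CPM), Dusp11 (86.3), Dusp2 (75.4) and Dusp16 (74.7) led in macrophages, and mouse Dusp12 stood at 16.4 CPM, well below the 240 CPM of human DUSP12. These 3 lists, too, had 0 calls by edgeR in all 5 classes and 3 contrasts, with 0 to 2 unadjusted p under 0.05 per class and contrast. Over all features and classes, 2478 of 52716 tests were under 0.05 unadjusted for GA-aFuc against Untreated. The counts were 2991 against N297A and 2300 for GITR/Syn GA-aFuc against GA-aFuc.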

How the data were processed

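Tumour leukocytes were measured with a 3′ droplet assay after hashing, per the labels' protocols. Cell Ranger 9.0.0 made the deposited matrix of UMI counts, per the file headers; its builds were GRCh38 and GRCm39, per the submitters' processing notes. The sources used here do not say how reads matching both genomes were handled. Treatments, cell types and clusters are the authors' deposited annotation; no doublet caller was run, and the sources do not say how doublets were handled. The annotation names no mice: its 12 runs of rising barcodes, each with 1 treatment, were taken as mice and numbered within a treatment. Hashtags checked this in 10476 of 10476 library 2 cells. The members and lists were chosen with earlier results of these data known. Named genes are the 6 transcripts, orthologues, receptor genes, list-feature neighbours, the 3 nearest patterns, the 5 next human features and up to 4 genes per list; cluster 15 genes, HSPA6-rich cells and Xist were chosen after their values were seen.

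CPM were computed here per 1e6 mapped UMIs of the cells; those of fits are TMM-scaled. Types with at least 10 cells in each of 6 mice have a mean ± SD. Counts were summed per mouse and class and fitted over all 6 mice with edgeR 4.0.16 (filterByExpr, TMM, glmQLFit, glmQLFTest); SE is the fold change over the root of F. The 6 mice were pooled in 1 library, so p-values measure the spread between mice within it. The 1 mouse of N297A and of Untreated is assumed to vary like the others. On simulated counts for GA-aFuc against Untreated, with 200 changed genes per class, edgeR recovered 98 to 100 of 100 changed 8 fold and 11 to 36 of 100 changed 2 fold, over 8816 to 14656 genes, with 1 to 9 false calls. Alternatives were DESeq2 1.42.0, RLE size factors, other filters, mouse features only in library sizes, cells without the highest 1% of UMIs and each mouse left out, and, chosen after seeing the data, 2 sets of cells left out and a term for mice with over 100 CPM of Xist in macrophages.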

Additional observations from a re-analysis of the deposited data

Results flagged for a closer look

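Outside the annotation, 5815 barcodes with at least 500 UMIs also held the 6 human transcripts, in cells that the comparisons do not use. ATF6 was there at 126 CPM against 246 CPM in annotated cells, DUSP12 at 104 against 204, FCRLB at 69.4 against 131, FCRLA at 9.11 against 17.0 and HSPA6 at 18.5 against 30.7. With all depths pooled, PLCG2 alone of the 6 was higher outside the annotation, at 146 CPM against 81.8 CPM. Within bins of depth others could be higher there too. At 2000 to 4000 UMIs ATF6 was at 266 CPM outside against 198 in annotated cells, but from 16000 at 103 against 244. HSPA6 was at 37.7 against 30.9 CPM at 8000 to 16000 UMIs, and at 14.8 against 27.6 from 16000. By depth, PLCG2 outside the annotation was at 439 CPM in barcodes of 500 to 1000 UMIs. It was at 669 CPM at 1000 to 2000 (647 in annotated cells) and 140 CPM from 16000 (66.7 in annotated cells). In the last of these bins 1 barcode outside the annotation held 159 UMIs. Mouse Plcg2 was at 94.9, 124 and 69.4 CPM in these bins outside the annotation. No group of treatments had 4 mice, so no mouse was examined for standing apart within its group.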

How the results depend on the processing

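In macrophages, monocytes, CD8, NK and cDC2, all 275 alternative values of a level, and all 120 of the human share of ATF6, DUSP12 and PLCG2, moved by less than 1 SD between mice. A count was taken as moved if it differed from the main count by over 1.5 times or, where either was 0, if it differed at all. Of 43 alternative counts of transcripts called 13 moved, and of 43 counts of features called 22 moved. The main counts of transcripts were 1, 0 and 0, so a change of 1 call was enough there. The cause was not tested. For GA-aFuc against Untreated (1 transcript and 27 features called), DESeq2 called 0 and 48, no filter on low counts called 622 features, a stricter filter 16, and cells without the highest 1% of UMIs 44; without cells of at least 10 HSPA6 UMIs 0 transcripts were called. For GA-aFuc against N297A (0 and 76), no filter called 2 and 806. For GITR/Syn GA-aFuc against GA-aFuc (0 and 26), no filter called 1 and 598, and cells without the highest 1% of UMIs 1 and 58. With a term for Xist, added after seeing the data, the 3 contrasts had 2, 0 and 1 transcripts and 649, 622 and 416 features called, with 1 residual degree of freedom. With each mouse left out in turn, the transcripts called ranged from 1 to 3, 0 to 1 and 0 to 3, and the features called from 21 to 833, 65 to 725 and 27 to 831, in the same order of contrasts. The highest counts came without GA-aFuc replicate 2 in 5 of these 6 ranges. Without that mouse FCRLB in monocytes (1.005, adjusted p = 0.0470), FCRLA in macrophages (-1.18, adjusted p = 0.000228) and HSPA6 in monocytes (-0.85, adjusted p = 0.0196) also passed, the last 2 for GITR/Syn GA-aFuc against GA-aFuc. Without GA-aFuc replicate 3, FCRLA passed in macrophages against N297A (-1.75, adjusted p = 6.51e-06), which sets 1 mouse with Xist against 1 without. Fits without a GA-aFuc mouse take their spread from the GITR/Syn GA-aFuc pair alone (1 residual degree of freedom), and the lone mice are assumed to vary like it. No log2 fold change of the 7 with an unadjusted p under 0.05 changed sign in any alternative run. Mice of different treatments could not be paired by label, because the labels give no number that links them. The term for Xist was the only block fitted. With 1 N297A mouse, 1 Untreated mouse and at most 83 dendritic cells per mouse, these fits limit what can be called.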
